A study of Mus musculus with 12 samples.

Results

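Expression of 9 enzyme genes that make, exchange and break down threonine, glycine and serine was measured in mouse embryonic stem cells (ESCs) and in their day 3 descendants. The genes were Tdh, Gcat, Gldc, Shmt1, Shmt2, Mthfd2, Phgdh, Psat1 and Psph. The genes were chosen by name, and each was found as exactly 1 assembled locus whose transcripts match the annotation under that name, so that no choice among loci by their counts was needed. All 9 passed the expression filter and lie among the 17922 loci tested, of 80012 counted. For 8 of the 9 the locus holds that gene alone. The Gcat locus also holds H1f0, which encodes the linker histone H1.0. Transcripts of this locus also match the Ensembl identifiers ENSMUSG00000114755 and ENSMUSG00000116378. Its counts are those of all these genes together and cannot be split.

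Poly(A) RNA from 12 libraries was sequenced, 4 in each of 3 groups, in paired-end mode. All groups derive from 1 ESC line on a C57BL/6 background that carries EGFP at the start site of the endogenous Eomes gene, so that cells expressing this T-box factor of the mesendoderm fluoresce. ESC libraries (day 0) came from undifferentiated cells grown on mouse embryonic fibroblast feeders. Eo- and Eo+ libraries came from embryoid bodies formed in hanging drops, which were dissociated on day 3 and sorted into cells without and with EGFP. The study states 4 differentiation sets, numbered 1, 2, 5 and 6 in the labels, and a library is named below by its group and number.

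Threonine dehydrogenase, encoded by Tdh, and the enzyme encoded by Gcat convert threonine in mitochondria into glycine and acetyl-CoA, and mouse ESCs are known for high Tdh and for a need for threonine. Glycine is split by the glycine cleavage system, whose decarboxylase is Gldc, or exchanged with serine by the hydroxymethyltransferases Shmt1 in the cytosol and Shmt2 in mitochondria. Glycine cleavage and the conversion of serine into glycine load a single-carbon unit on folate, and in mitochondria Mthfd2 oxidises this unit. Serine itself is made from a glycolytic intermediate by Phgdh, Psat1 and Psph in turn.

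Library totals ranged from 648413022 to 837308168 counts on loci, so that 3 counts, taken as the floor, equalled 0.00354 to 0.00467 CPM (counts scaled to a common library size). The labels were checked against marker lists. Eomes, the gene used for sorting, had 46.5, 137 and 527 CPM in ESC, Eo- and Eo+ cells, so the Eo- fraction was not free of it. All 5 pluripotency genes and all 4 neuroectoderm genes fell, and all 6 mesendoderm genes rose, in Eo+ vs ESC. The calls of Eo- vs ESC in those directions were 4 of the 5, 4 of the 4 and 4 of the 6. The 9 feeder fibroblast markers summed to 92.5 to 232 CPM in ESC libraries, 26.1 to 36.1 CPM in Eo- and 19.4 to 32.04 CPM in Eo+ libraries, and none was at 0 in ESCs. Of the Eo- sum, 21.3 CPM on average was Thy1, which was higher in Eo- cells than in ESCs, whereas Col1a1 went from 63.8 CPM in ESCs to 1.86 CPM in Eo- cells. Visceral endoderm markers summed to 44.2 CPM in Eo+ 1 and to 2.12 CPM in Eo+ 2, and primitive erythroid markers to 99.2 CPM in Eo- 1, where Eo- 2, 5 and 6 had 3.32 to 5.16 CPM. In these bulk samples fewer cells that express a gene and less RNA per cell cannot be told apart.

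Promoter sequences were read from RefSeq (GRCm38.p6) as the 250 bases before the annotated start. Windows were given for 8 of the 9 genes, with none for Tdh and a pair for Psat1, which makes 9 windows. The C/EBP-ATF response element, TGATGNAA on either strand, through which the stress factor Atf4 binds DNA, occurred in 0 of these 9 windows, in 5 of 11 windows of Atf4 and other known Atf4 targets, and in 3.45% of all 32851 windows. The E-box CACGTG occurred in 0 of the 9 windows, in 1 of the 11 and in 6.02% of all windows. CCAAT, read as ATTGG on the other strand and searched for after the sequences had been seen, occurred in 6 of the 9 windows, 7 of the 11 and 33.8% of all windows. These are matches of letters, and a missing match says only that the letters are not in the window.

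The windows of Psat1 and Mthfd2 are printed because these genes had the most similar profiles of all 36 pairs of members. CCAAT or ATTGG is in capitals. The Psat1 window lies at chr19:15925060-15925309 and the Mthfd2 window at chr6:83317605-83317854, both on the minus strand. The other Psat1 window, at chr19:15924623-15924872, holds neither and is not printed.
Psat1: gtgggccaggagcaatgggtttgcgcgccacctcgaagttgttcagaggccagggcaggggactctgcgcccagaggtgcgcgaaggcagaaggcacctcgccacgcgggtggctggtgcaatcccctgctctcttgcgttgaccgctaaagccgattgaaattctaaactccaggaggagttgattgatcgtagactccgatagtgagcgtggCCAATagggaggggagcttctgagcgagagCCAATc
Mthfd2: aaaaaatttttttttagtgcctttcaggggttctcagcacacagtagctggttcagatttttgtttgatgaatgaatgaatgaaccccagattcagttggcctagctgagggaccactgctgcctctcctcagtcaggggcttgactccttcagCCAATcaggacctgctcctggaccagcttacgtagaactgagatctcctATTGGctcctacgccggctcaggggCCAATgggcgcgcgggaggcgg
For comparison, the response element stands in capitals, with 9 bases on each side, in Asns (chr6:7693216-7693241), Pycr1 (chr11:120643835-120643860), Pck2 (chr14:55540154-55540179) and Chac1 (chr2:119351040-119351065), each read on the minus strand. The remaining gene with the element was Slc7a11, whose window holds it on both strands.
Asns: ccagccacaTGATGAAActtcccgca
Pycr1: ccctgtgtaTGATGCAAtgcacaagg
Pck2: gtaagatacTGATGTAActttgaagg
Chac1: tggcaggagTGATGCAAcggcaggga
Of these, Pck2 alone had no call in any comparison, as described below.

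The 3 comparisons ask how expression differs between pluripotent cells and cells committed to the mesendoderm (Eo+ vs ESC), between ESCs and cells of the same embryoid bodies sorted for lack of EGFP (Eo- vs ESC), and between both sorted fractions (Eo+ vs Eo-). Calls rest on limma with a threshold of 0.05 on p-values adjusted over all 17922 loci. In Eo+ vs ESC all 9 genes were called, 8 lower and 1 higher, where 71.9% of all loci were called, 36.1% lower and 35.8% higher. In Eo- vs ESC 8 were called, 6 lower and 2 higher, where 62.2% of all loci were called, 31.3% lower and 30.9% higher. In Eo+ vs Eo- 6 were called, 4 lower and 2 higher, where 47.7% of all loci were called, 24.6% lower and 23.0% higher. For 6, 8 and 5 of the genes in these comparisons the 2 groups shared no range of values, against 64.5%, 55.8% and 45.9% of all loci. Falls thus outnumbered rises among the calls of the 9 genes, in Eo+ vs Eo- by 4 to 2 only. Over all loci both were about equally frequent. The split was not tested, and the genes were chosen with earlier results of these data known. The median log2 fold change of the 9 genes was -0.70, -0.82 and 0.00, and that of all loci 0.00, 0.02 and -0.01. The comparisons against ESC share the same 4 ESC libraries.

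**Figure D1:**
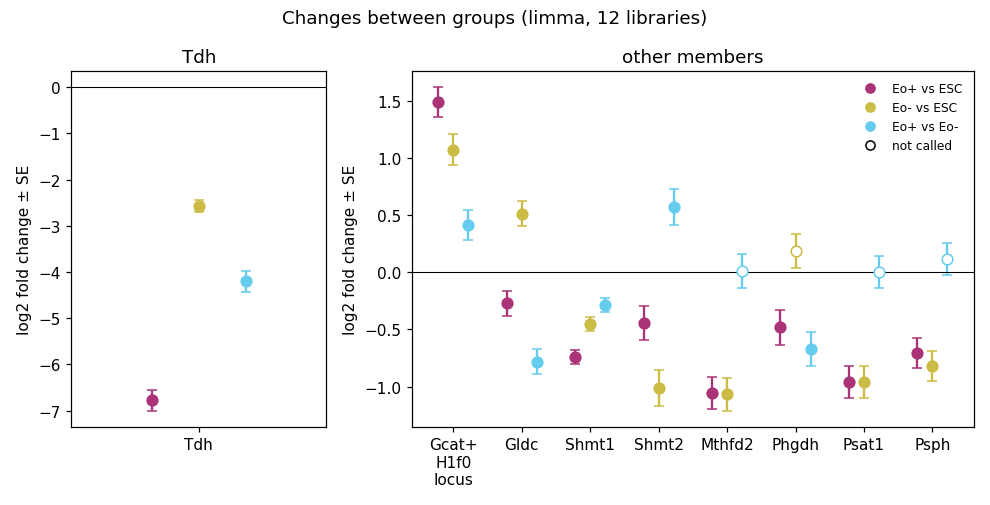
Log2 fold changes (points) with standard errors (bars) of the 9 genes in the 3 comparisons from limma over 12 libraries, with Tdh on an axis of its own and open points for values that were not called. Tdh fell by 6.77 on the log2 scale in Eo+ vs ESC, Mthfd2 and Psat1 lie at 0.01 and 0.00 in Eo+ vs Eo-, and the Gcat value is that of the joint Gcat and H1f0 locus.

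Tdh showed the largest change of the 9 genes in each of the 3 comparisons. The gene (XLOC_023603, ENSMUSG00000021953) is on the minus strand of chromosome 14 in mm10, and the assembled locus spans 63453684 to 63509323. Its level was 596, 685, 522 and 530 CPM in ESC 1, 2, 5 and 6, 101, 107, 99.2 and 84.5 CPM in the Eo- libraries in the same order, and 4.53, 3.68, 10.2 and 4.72 CPM in the Eo+ libraries. The 3 groups did not overlap, and every Eo- library lay between ESC and Eo+ libraries. The mean over 4 libraries (± SD) was 583 ± 75.4 CPM in ESCs, 97.99 ± 9.63 CPM in Eo- cells and 5.79 ± 2.998 CPM in Eo+ cells.

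These levels correspond to a 5.94-fold lower level in Eo- than in ESCs (log2 fold change -2.57 ± 0.13 (SE), limma adjusted p = 8.65e-09). In Eo+ cells the level was 109-fold lower than in ESCs (-6.77 ± 0.22, limma adjusted p = 7.85e-11) and 18.4-fold lower than in Eo- cells (-4.20 ± 0.23, limma adjusted p = 6.25e-08). Eo+ 5 held more Tdh than the other 3 Eo+ libraries. Even there 7282 reads were counted on the locus at most, and the lowest Eo+ library still had 2847, so the low level lay far above the floor. Among the pluripotency markers, Zfp42 was 115-fold and Esrrb 130-fold lower in Eo+ cells than in ESCs, Klf4 20.9-fold, Nanog 3.93-fold and Pou5f1 2.49-fold. In Eo- cells the folds were 11.8, 9.90, 21.8 and 2.66 in the same order, and Pou5f1 was not called. The part of pluripotent cells in the Tdh difference was not tested.

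The joint locus of Gcat and H1f0 was the only one of the 9 that was higher in Eo+ than in ESCs. Gcat encodes the ligase that follows Tdh in threonine breakdown, while H1f0 is known from differentiated, nondividing cells. The locus (XLOC_025002) spans 79027429 to 79047824 on the plus strand of chromosome 15. It had 128, 162, 94.6 and 167 CPM in the ESC libraries, 269, 298, 289 and 274 CPM in Eo- and 378, 364, 398 and 367 CPM in Eo+ libraries. Again the groups did not overlap, in the order opposite to that of Tdh. On the log2 scale the locus rose by 1.49 ± 0.13 in Eo+ vs ESC (limma adjusted p = 2.69e-07) and by 1.07 ± 0.13 in Eo- vs ESC (1.26e-05). Eo+ cells exceeded Eo- cells by 0.42 ± 0.13 (0.0167). How much of it belongs to Gcat was not tested.

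**Figure D2:**
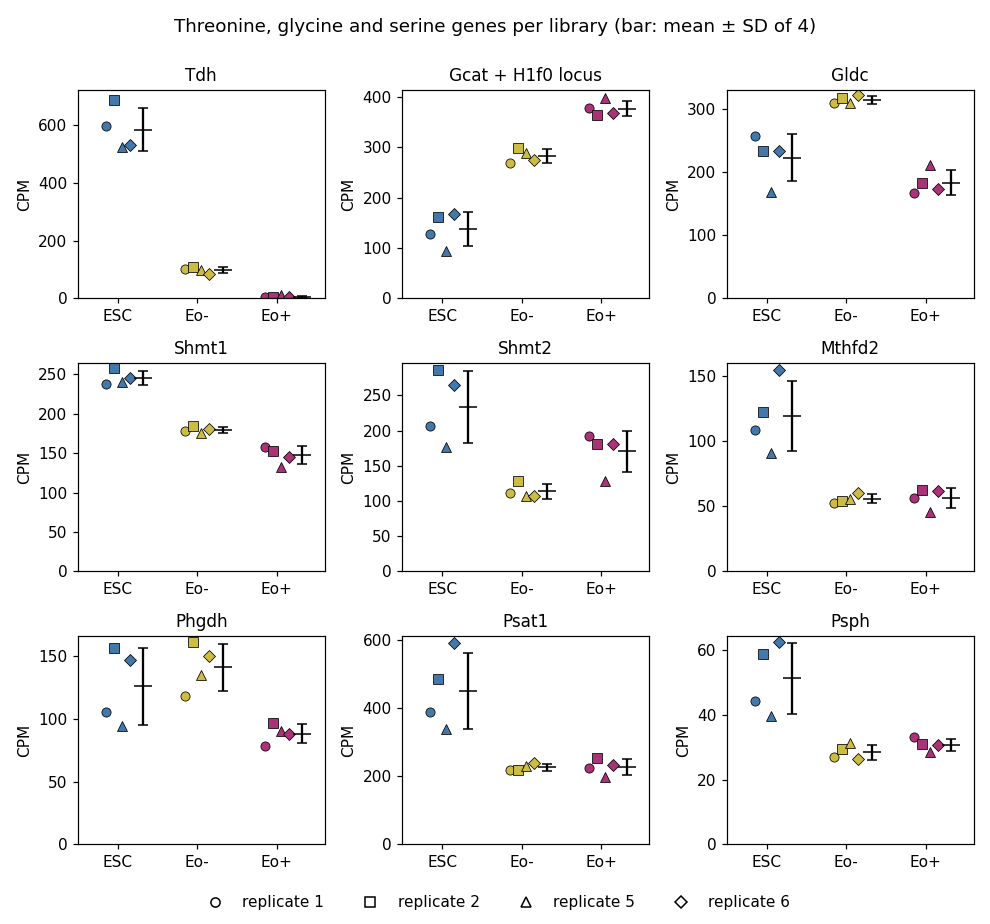
Level in CPM of each gene in each of the 12 libraries (symbols by replicate number), with the mean and SD of 4 libraries beside each group, on axes that start at 0. Tdh fell stepwise from ESCs over Eo- to Eo+ cells, the joint Gcat and H1f0 locus rose in the same order, and Gldc was highest in Eo- cells at 315 CPM.

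Gldc, the decarboxylase that starts glycine cleavage, was highest in Eo- cells. The gene (XLOC_036498) lies on the minus strand of chromosome 19, from 30098449 to 30175418. Its level was 257, 234, 169 and 233 CPM in ESC, 310, 319, 309 and 322 CPM in Eo- and 168, 182, 212 and 173 CPM in Eo+ libraries. All 4 Eo- libraries lay above all others, whereas ESC and Eo+ libraries overlapped. Gldc was 1.43-fold higher in Eo- than in ESCs (log2 fold change 0.51 ± 0.11, limma adjusted p = 0.00103) and fell by 0.78 ± 0.11 in Eo+ vs Eo- (6.98e-05). The smaller difference between Eo+ and ESCs (-0.27 ± 0.11, adjusted p = 0.0414) was called in 6 of 21 alternative settings. It was not called, with limma adjusted p of 0.0512 to 0.134, when ESC 1, ESC 2, ESC 6, any single Eo- library, Eo+ 1, Eo+ 2 or Eo+ 6 was left out.

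The other 3 parts of the glycine cleavage system were not highest in Eo- cells. Amt, the aminomethyltransferase, had means of 46.3, 38.4 and 26.5 CPM in ESC, Eo- and Eo+ cells and fell in Eo+ cells against both, by 0.79 ± 0.10 on the log2 scale against ESC (limma adjusted p = 6.87e-06) and by 0.53 ± 0.10 against Eo- (0.000678). In Eo- vs ESC Amt had -0.26 ± 0.09 (0.0275), a call lost without ESC 2, ESC 6, Eo- 1 or Eo- 5 (adjusted p of 0.0613 to 0.0776), with library totals (0.0943) and without the expression filter (0.107). Dld, the lipoamide dehydrogenase that also serves other complexes, rose in Eo+ cells, by 0.36 ± 0.07 against ESC (0.000405) and by 0.25 ± 0.07 against Eo- (0.00956). Gcsh, the lipoyl carrier, was near the threshold at -0.17 ± 0.07 in Eo+ vs ESC (0.0489), and leaving out any single library but ESC 1 or ESC 2 raised its adjusted p to between 0.0574 and 0.154. In Eo- vs ESC Gcsh had -0.16 ± 0.07 and was not called (0.0734), though 6 of the alternatives called it lower (0.0152 to 0.0487). Gldc alone of these 4 genes was called higher in Eo- than in ESCs, except that with library totals as the scaling Dld was also called (adjusted p = 0.0457).

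The cytosolic and mitochondrial serine hydroxymethyltransferases differed in their order over the groups. Shmt1 (XLOC_012374, chromosome 11, 60787324 to 60812017, minus strand) had 237, 258, 240 and 245 CPM in ESC, 178, 184, 175 and 180 CPM in Eo- and 158, 153, 132 and 145 CPM in Eo+ libraries. The 3 groups did not overlap, with a stepwise fall from ESC over Eo- to Eo+. Shmt1 fell by 0.45 ± 0.06 in Eo- vs ESC (limma adjusted p = 2.22e-05), by 0.74 ± 0.06 in Eo+ vs ESC (1.21e-07) and by 0.29 ± 0.06 in Eo+ vs Eo- (0.0016).

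Shmt2 (XLOC_008783, chromosome 10, 127517123 to 127523241, minus strand) was lowest in Eo- cells instead. It had 207, 286, 177 and 264 CPM in ESC, 112, 129, 107 and 107 CPM in Eo- and 192, 181, 128 and 181 CPM in Eo+ libraries. ESC and Eo- libraries did not overlap, while Eo+ libraries reached into both ranges. Shmt2 fell by 1.01 ± 0.15 in Eo- vs ESC (limma adjusted p = 7.15e-05) and was 1.49-fold higher in Eo+ than in Eo- cells (0.57 ± 0.16, adjusted p = 0.00842). The difference between Eo+ and ESCs (-0.44 ± 0.15, adjusted p = 0.0178) was not called without ESC 2 (0.0632), ESC 6 (0.0558) or Eo+ 5 (0.0707), nor without the expression filter (-0.36, 0.0559).

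Per length of the locus, as CPM per kilobase of exons (FPKM), Shmt2 exceeded Shmt1 by a ratio of 1.45, 1.85, 1.22 and 1.79 in ESC libraries and of 2.02, 1.97, 1.61 and 2.09 in Eo+ libraries. In the Eo- libraries the ratio was 1.04, 1.17, 1.02 and 0.991. Averaged over the 4 libraries of a group (± SD), it was 1.58 ± 0.296 for ESC, 1.05 ± 0.0779 for Eo- and 1.92 ± 0.213 for Eo+ cells. The Eo- libraries thus lay below all libraries of the other groups, whose ranges overlapped. These ratios describe RNA and were given no test of their own. Their size rests on the exon lengths of the assembled loci (5163 bases for Shmt1, 3102 for Shmt2), whereas their order over the groups does not.

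**Figure D3:**
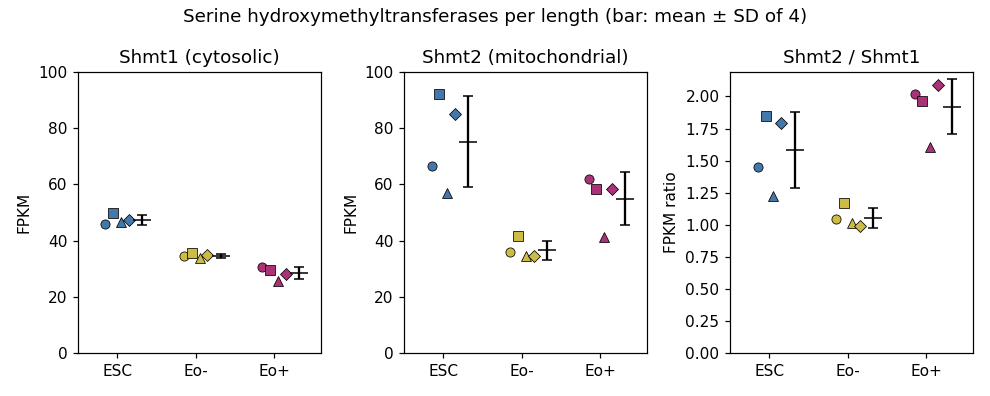
FPKM of Shmt1 and of Shmt2 and their ratio in each library (symbols by replicate number as in the plot of all 9 genes), with the mean and SD of 4 libraries, on axes that start at 0. The ratio is near 1.05 in Eo- cells and lies at 1.22 or above in every ESC and Eo+ library.

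Mthfd2, the mitochondrial dehydrogenase and cyclohydrolase of the folate cycle, fell by like amounts in both fractions. The gene (XLOC_059791) spans 83305691 to 83317606 on the minus strand of chromosome 6. Levels were 109, 123, 90.5 and 154 CPM in ESC, 52.7, 53.7, 55.7 and 60.5 CPM in Eo- and 56.5, 62.7, 45.5 and 61.5 CPM in Eo+ libraries. Every ESC library exceeded every sorted library. Mthfd2 fell by 1.07 ± 0.14 in Eo- vs ESC (limma adjusted p = 2.14e-05) and by 1.05 ± 0.14 in Eo+ vs ESC (1.42e-05), and no difference was called between the fractions (0.01 ± 0.15, 95% interval -0.30 to 0.33, adjusted p = 0.944).

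Other genes of the mitochondrial folate cycle moved in different directions. Mthfd2l, the paralog of Mthfd2 with the same reactions, rose from 2.45, 2.54, 3.69 and 1.74 CPM in ESC to 10.2, 8.36, 11.4 and 9.39 CPM in Eo- and 12.7, 11.7, 12.9 and 12.02 CPM in Eo+ libraries. The rise was 1.95 ± 0.18 on the log2 scale for Eo- vs ESC (limma adjusted p = 8.67e-07) and 2.28 ± 0.18 for Eo+ vs ESC (7.09e-08). Between the fractions it was 0.33 ± 0.14 with an adjusted p of 0.0704. The adjusted p was 0.0495 with the replicate block over all libraries, 0.0263 in a fit of the 2 fractions alone and 0.00981 in that fit with the block, and the call was also made without ESC 5 (0.0323) or ESC 6 (0.0369). Since Mthfd2 fell as Mthfd2l rose, the ratio of their FPKM went from 59.0 ± 30.9 in ESCs to 6.55 ± 0.953 in Eo- and 5.30 ± 0.940 in Eo+ cells.

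Aldh1l2, which oxidises formyl-folate in mitochondria, fell by 3.14 ± 0.39 in Eo+ vs ESC (limma adjusted p = 6.10e-06) and by 2.73 ± 0.36 in Eo- vs ESC (2.26e-05), from 2.91 ± 1.44 CPM in ESCs. Slc25a32, a mitochondrial folate carrier, was the remaining called gene of the 5 on this list, with -0.56 ± 0.10 (0.000157) and -0.41 ± 0.09 (0.00196). Mthfd1l, the mitochondrial formate-releasing synthetase, had 126, 130 and 128 CPM in ESC, Eo- and Eo+ cells and was called in no comparison (adjusted p of 0.598 to 0.834).

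Of the 3 serine synthesis genes, the enzyme of the first step differed from those of the later steps. Phgdh (XLOC_046387, chromosome 3, 98308350 to 98339990, minus strand) had 106, 156, 94.7 and 147 CPM in ESC, 118, 162, 135 and 150 CPM in Eo- and 78.3, 97.0, 90.1 and 87.7 CPM in Eo+ libraries. All Eo+ libraries lay below all Eo- libraries, and ESC libraries spread over both ranges. Phgdh fell by 0.48 ± 0.15 in Eo+ vs ESC (limma adjusted p = 0.0114) and by 0.67 ± 0.15 in Eo+ vs Eo- (0.00252). No difference was called in Eo- vs ESC (0.19 ± 0.15, 95% interval -0.13 to 0.51, adjusted p = 0.284).

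Psat1, the aminotransferase of the second step (XLOC_036317, chromosome 19, 15904650 to 15947337, minus strand), had 390, 487, 338 and 592 CPM in ESC, 219, 218, 231 and 239 CPM in Eo- and 225, 253, 197 and 234 CPM in Eo+ libraries. The sorted fractions overlapped fully and lay below every ESC library. Psat1 fell by 0.96 ± 0.14 in both Eo+ vs ESC (limma adjusted p = 2.67e-05) and Eo- vs ESC (4.45e-05), and the difference between the fractions was 0.00 ± 0.14, with a 95% interval of -0.30 to 0.30.

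Psph, the phosphatase of the last step (XLOC_056175, chromosome 5, 129765558 to 129787252, minus strand), was lower throughout, at 44.2, 58.8, 39.8 and 62.5 CPM in ESC, 26.9, 29.4, 31.5 and 26.5 CPM in Eo- and 33.1, 31.0, 28.6 and 30.7 CPM in Eo+ libraries. As for Psat1, no ESC library overlapped a sorted one. It fell by 0.70 ± 0.13 in Eo+ vs ESC (limma adjusted p = 0.00026) and by 0.82 ± 0.13 in Eo- vs ESC (0.00011), with 0.12 ± 0.14 between the fractions (95% interval -0.18 to 0.41). Per length, the ratio of Psat1 to Phgdh was 2.10 ± 0.218 in ESCs, 0.948 ± 0.125 in Eo- and 1.51 ± 0.167 in Eo+ cells.

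Levels of different genes were compared as FPKM, so that their order depends on the exon lengths of the assembled loci. In ESCs Tdh was highest at 196 ± 25.4 FPKM, followed by Psat1 at 105 ± 26.1 and Shmt2 at 75.2 ± 16.3 FPKM. Gldc (59.4 ± 10.1), Phgdh (50.5 ± 12.2), Shmt1 (47.5 ± 1.73) and Mthfd2 (43.7 ± 9.87) followed, with ranges of mean ± SD that overlapped between neighbours in this order from Psat1 to Mthfd2, and Psph (12.8 ± 2.74) was low. In Eo- cells Gldc led at 83.7 ± 1.69 FPKM, ahead of Phgdh (56.5 ± 7.59) and Psat1 (52.9 ± 2.32), while Tdh had 33.003 ± 3.24 FPKM, close to Shmt1 (34.7 ± 0.701) and Shmt2 (36.7 ± 3.32). In Eo+ cells Shmt2 (55.0 ± 9.32), Psat1 (53.1 ± 5.39) and Gldc (48.8 ± 5.19) overlapped at the top, Psph had 7.69 ± 0.461 FPKM and Tdh was lowest at 1.95 ± 1.01 FPKM. Tdh thus moved from the top of the order to its end. Among the 14216 protein-coding loci tested, Tdh was number 223 by FPKM in ESCs, 1402 in Eo- and 8921 in Eo+ cells. The joint Gcat and H1f0 locus, 14232 bases of exons in all, had 9.68 ± 2.36, 19.9 ± 0.932 and 26.5 ± 1.07 FPKM. The ratio of Gldc to Tdh moved from 0.303 ± 0.0471 over 2.56 ± 0.303 to 28.4 ± 9.32.

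Similarity of profiles was measured as the root-mean-square difference of centred log2 CPM over the 12 libraries, where 0 means the same profile. Among the 36 pairs of the 9 genes, Mthfd2 and Psat1 were closest (0.0714), followed by Psat1 and Psph (0.145) and Mthfd2 and Psph (0.196). Tdh was 2.46 or more from every other gene of the group, and Gldc was closest to Phgdh (0.235). Over 11799 protein-coding loci, the profiles most like Tdh were those of Gdf3 (0.271), a growth factor of pluripotent cells, Zp3 (0.284), an egg coat protein, and Gm13247 (0.299). Gdf3 had 127, 21.5 and 0.986 CPM in ESC, Eo- and Eo+ cells. Those most like Gldc were Gprc5b (0.115), Sox12 (0.128) and Ptprf (0.132). For Phgdh they were the glycolytic enzymes Eno1 (0.0987), Eno1b (0.125), whose near identity with Eno1 leaves its counts uncertain, and Pkm (0.150).

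Beside the 9 genes, 63 further genes of connected pathways were listed, of which 62 had a locus and 58 were tested. Of these 58, 40 were called in Eo+ vs ESC (11 higher, 29 lower), 38 in Eo- vs ESC (13 higher, 25 lower) and 24 in Eo+ vs Eo- (11 higher, 13 lower). These were 69.0%, 65.5% and 41.4% of the 58, against 71.9%, 62.2% and 47.7% of all loci.

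Atf4 is the transcription factor of the amino acid response, and Psat1, Phgdh, Shmt2 and Mthfd2 are known among its targets. Of Atf4 and 10 other targets tested, 8 fell and 3 were not called in Eo+ vs ESC, 9 fell and 2 were not called in Eo- vs ESC, and 2 fell and 1 rose in Eo+ vs Eo-. The share called was 72.7%, 81.8% and 27.3%, against 71.9%, 62.2% and 47.7% of all loci, and falls alone made up 36.1%, 31.3% and 24.6% of all loci. Their median log2 fold change was -1.11 in each comparison against ESC and -0.02 in Eo+ vs Eo-. Asns, asparagine synthetase, fell by 1.11 ± 0.14 in Eo+ vs ESC (limma adjusted p = 6.09e-06) and by 1.22 ± 0.14 in Eo- vs ESC (5.27e-06), from 314 ± 74.6 CPM in ESCs. Trib3, a pseudokinase, fell by 1.84 ± 0.30 in Eo+ vs ESC (7.59e-05), and Slc7a11, the cystine carrier, by 2.73 ± 0.37 (1.59e-05). Pck2, the mitochondrial phosphoenolpyruvate carboxykinase, was not called in any comparison (0.34 ± 0.23, adjusted p = 0.19 in Eo+ vs ESC).

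The joint locus of Atf4 and Mief1, whose counts cannot be split, had 298, 234 and 281 CPM in ESC, Eo- and Eo+ cells. It fell by 0.34 ± 0.09 in Eo- vs ESC (limma adjusted p = 0.00358) and was not called in Eo+ vs ESC (-0.08 ± 0.09, 95% interval -0.26 to 0.11, adjusted p = 0.438). In Eo+ vs Eo- the locus had 0.27 ± 0.09 (adjusted p = 0.0218), the rise counted above, a call lost without Eo- 1, Eo+ 2 or Eo+ 6 (0.0510 to 0.0559).

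Purine synthesis uses glycine and formyl-folate. Of its 8 genes tested, 6 fell and 1 rose in Eo+ vs ESC, 4 fell and 1 rose in Eo- vs ESC, and 4 fell in Eo+ vs Eo-, with medians of -0.44, -0.19 and -0.24. The share called was 87.5%, 62.5% and 50%, against 71.9%, 62.2% and 47.7% of all loci, near that background in the comparisons with Eo- cells. Gart, the trifunctional enzyme that adds glycine and a formyl group, fell by 1.03 ± 0.09 in Eo+ vs ESC (limma adjusted p = 1.72e-07) and by 0.59 ± 0.09 in Eo+ vs Eo- (0.00011). Prps1, a phosphoribosyl pyrophosphate synthetase, fell by 1.09 ± 0.12 in Eo+ vs ESC (1.54e-06), whereas its paralog Prps2, named after its values were seen, was the gene that rose (0.64 ± 0.13, adjusted p = 0.000555).

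Of 8 cytosolic folate genes, 3 rose and 2 fell in Eo+ vs ESC, 4 rose and 1 fell in Eo- vs ESC, and 2 rose and 3 fell in Eo+ vs Eo-, with medians of 0.12, 0.16 and -0.10. Calls thus covered 62.5% of the list in each comparison, against 71.9%, 62.2% and 47.7% of all loci. Fpgs, which adds glutamates to folate and shares its locus with the microRNA gene Mir8093, fell by 1.08 ± 0.08 in Eo+ vs ESC (limma adjusted p = 6.97e-08), and Aldh1l1, the cytosolic counterpart of Aldh1l2, rose by 1.30 ± 0.21 (6.53e-05). Mthfd1, the trifunctional cytosolic enzyme, fell by 0.30 ± 0.08 in Eo+ vs ESC (0.00379). In Eo+ vs Eo- the calls of Aldh1l1 (0.48 ± 0.19, limma adjusted p = 0.0479) and Mthfd1 (-0.24 ± 0.08, 0.0245) were lost in 13 and 4 alternatives.

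Of 9 genes of the methionine cycle and transsulfuration tested, 5 fell and 4 were not called in Eo+ vs ESC, 5 fell and 3 rose in Eo- vs ESC, and 2 fell and 1 rose in Eo+ vs Eo-, with medians of -0.43, -0.24 and -0.09. The share called was 55.6%, 88.9% and 33.3%, against 71.9%, 62.2% and 47.7% of all loci, and so below the background in both comparisons of Eo+ cells. Cbs, which condenses serine with homocysteine, was highest in Eo- cells as Gldc was, with 21.9, 29.6 and 11.3 CPM in ESC, Eo- and Eo+ cells, a rise of 0.45 ± 0.13 in Eo- vs ESC (limma adjusted p = 0.00698) and a fall of 1.40 ± 0.14 in Eo+ vs Eo- (5.87e-06). Cth, the next enzyme, fell by 0.88 ± 0.12 in Eo+ vs ESC (1.85e-05) and by 1.24 ± 0.12 in Eo- vs ESC (1.91e-06). Mat2a, the synthetase of S-adenosylmethionine, fell by 0.43 ± 0.13 in Eo+ vs ESC (0.00741).

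Among 7 genes of serine, threonine and glycine breakdown tested, 3 rose and 2 fell in Eo+ vs ESC, likewise 3 and 2 in Eo- vs ESC, and 4 rose and 1 fell in Eo+ vs Eo-, with medians of 0.40, 0.24 and 0.73. In each comparison 71.4% of the list was called, against 71.9%, 62.2% and 47.7% of all loci. Pipox, a sarcosine oxidase of peroxisomes, had 30.4, 46.7 and 10.3 CPM in ESC, Eo- and Eo+ cells, rose by 0.61 ± 0.16 in Eo- vs ESC (limma adjusted p = 0.00467) and fell by 2.22 ± 0.20 in Eo+ vs Eo- (2.11e-06). Sdsl, a serine dehydratase-like protein, rose by 3.61 ± 0.23 in Eo+ vs ESC (1.32e-08), from 0.197 ± 0.0195 to 2.42 ± 0.367 CPM. Of 7 amino acid carriers tested, 2 rose and 2 fell in Eo+ vs ESC, 1 rose and 1 fell in Eo- vs ESC, and 2 rose in Eo+ vs Eo-, with medians of 0.21, -0.10 and 0.32. The share of carriers called, 57.1%, 28.6% and 28.6%, was below that of all loci (71.9%, 62.2% and 47.7%) throughout. In Eo+ vs Eo-, however, the groups did not overlap for 4 of the 7 carriers, against 45.9% of all loci. Sfxn1, the mitochondrial serine carrier, rose by 0.56 ± 0.08 in Eo+ vs ESC (2.19e-05), and Slc38a2, a carrier of neutral amino acids, fell by 0.44 ± 0.09 (0.00057). Slc1a5, a glutamine and serine exchanger, fell by 0.51 ± 0.16 in Eo+ vs ESC (0.0104). In Eo+ vs Eo- it had -0.28 ± 0.16, with an adjusted p of 0.159, of 0.0773 with the replicate block over all libraries, of 0.0103 in a fit of the 2 fractions alone, of 0.00703 in that fit with the block, and of 0.0475 without ESC 6.

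**Figure D4:**
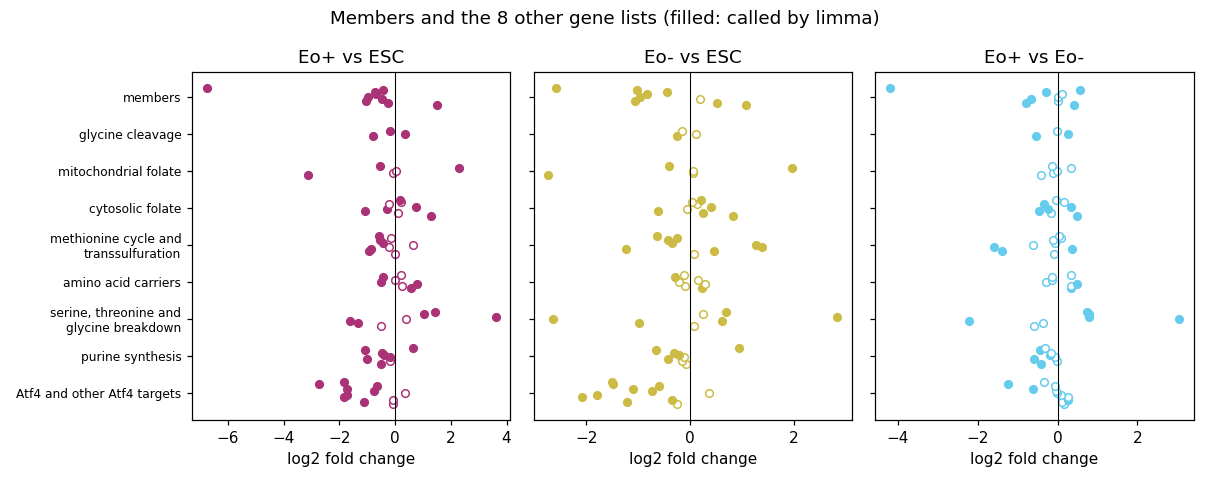
Log2 fold change of each tested gene of the 9 and of the 8 further lists (1 row per list) in the 3 comparisons, with filled points for genes called by limma, open points for the others, and an axis of its own range in each panel. Of the genes of the Atf4 list, 8 of 11 fell in Eo+ vs ESC and 9 of 11 in Eo- vs ESC, and Tdh stands far to the left in each panel.

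Most of the 9 genes had a like order among the ESC libraries, within 1 group. Of the 9, 8 were highest in ESC 2 or ESC 6, as were 50.3% of all loci, and 8 were lowest in ESC 5, as were 29.6% of all loci. These libraries were singled out from the same values, so that the shares only describe the order and test nothing. Psat1 ranged from 0.748 times the ESC mean in ESC 5 to 1.31 times in ESC 6, and Phgdh from 0.752 times in ESC 5 to 1.24 times in ESC 2. The median ratio of the highest to the lowest ESC library was 1.62 for the 9 genes and 1.40 for all loci, and Shmt1 was the most even with 1.09. The exceptions were Gldc, highest in ESC 1 at 1.15 times its ESC mean, and Shmt1, lowest in ESC 1 at 0.968 times. Tdh was highest in ESC 2 but had 0.909 times its ESC mean in ESC 6.

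Of the 11 tested genes of the Atf4 list, 9 were highest in ESC 2 or ESC 6, and so were 5 of 5 pluripotency genes. Of the 9 feeder markers, 0 were highest in those libraries and 0 were lowest in ESC 5. Their sums were 232, 111, 185 and 92.5 CPM in ESC 1, 2, 5 and 6, with the peak in ESC 1. Of the 6 mesendoderm markers, 1 was highest in ESC 2 or ESC 6 and 0 were lowest in ESC 5. The summed pluripotency markers were 2630, 3260, 2415 and 3058 CPM, and the mesendoderm markers 157, 167, 288 and 92.1 CPM. The part of feeder cells or of early differentiation in the spread of the 9 genes was not tested. The calls of Gldc and Shmt2 in Eo+ vs ESC, given above, were lost without ESC 2 or ESC 6.

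**Figure D5:**
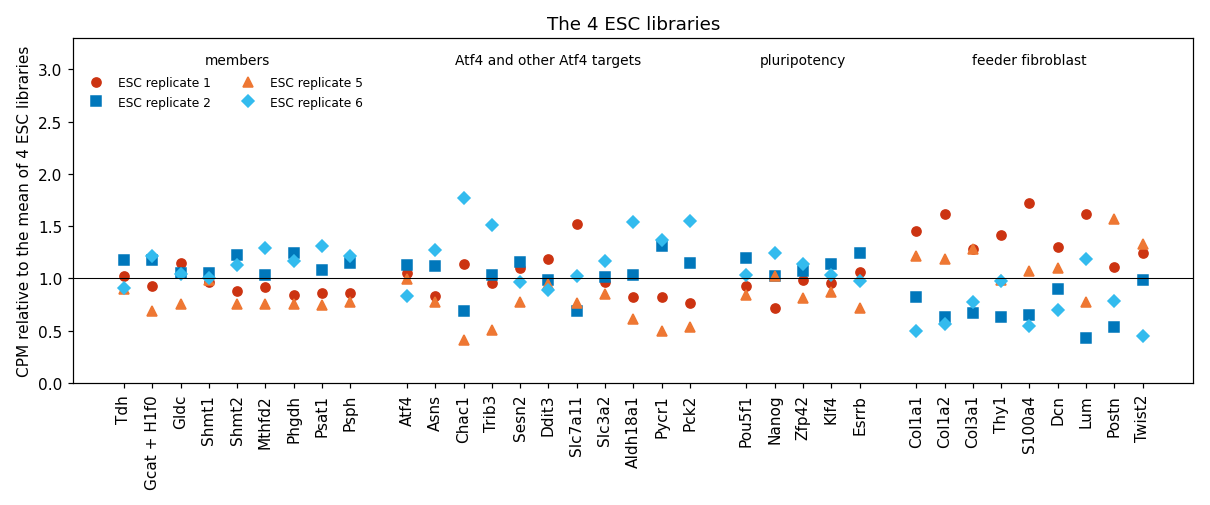
CPM in each of the 4 ESC libraries divided by the mean of these libraries, for the 9 genes, the Atf4 list, pluripotency genes and feeder fibroblast markers, with a line at 1. ESC 5 holds the lowest value for 8 of the 9 genes, and the feeder markers Col1a1, Col1a2 and S100a4 are highest in ESC 1.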

How the data were processed

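The authors mapped stranded paired reads to mm10 with STAR (2.0.4 per the submitters' processing notes), assembled transcripts with Cufflinks 2.2.1 on the Ensembl annotation and counted reads per locus with HTSeq 0.6.1. The deposited values are raw whole-number counts per locus, without scaling. A deposited normalized table of library-scaled signal served only to define an alternative set of 22187 loci. A deposited annotation gives exons.

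From these counts, CPM used TMM-scaled library sizes (edgeR 4.0.16), and FPKM divided CPM by summed exon length. Loci with a mean FPKM over 0.1 in at least 1 group were tested by limma 3.58.1 with voom (R 4.3.3), 1 mean per group over all 12 libraries, two-sided, 13.485 degrees of freedom, with Benjamini-Hochberg adjustment. Values are mean ± SD, and fold changes log2 ± SE. HTSeq set aside 22.4% to 26.2% of alignments as not unique, the floor of 3 counts covers counting error only, and 95% intervals come from the limma fit and so rest on the spread between libraries. The code was tested on simulated data.

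The members and lists were chosen with earlier results of these data known. Beside the 9 members, 9 pathway genes were named by choice and others as the 2 largest non-overlapping changes per list in Eo+ vs ESC with at least 1 CPM. Profiles were compared at a prior count of 1. Deviations from group means correlated between same-numbered Eo- and Eo+ libraries (r = 0.311 to 0.634 in 4 pairs), so that the numbers pair the fractions, while same-numbered ESC and sorted libraries gave -0.125 to 0.432 in 8 pairs and libraries of different numbers -0.407 to 0.281 in 36. ESC 2 with Eo- 2 (0.432) lay above that last range, but not every pair exceeded 0.1, so that ESC libraries were not taken as paired. Bhmt, Slc7a10, Sds and Agxt failed the filter, and Slc7a5 was not analysed here.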

Additional observations from a re-analysis of the deposited data

Results flagged for a closer look

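Single libraries that stood apart from the other 3 of their group were sought in 96 groups of 4 (32 genes in 3 groups), with the gap to the nearest library set against the range. Of these, 3 exceeded Dixon's 95% limit, where chance gives about 1 in 20. Tdh had 10.2 CPM in Eo+ 5, where Eo+ 1, 2 and 6 had 3.68 to 4.72 CPM. The summed pluripotency markers were 759 CPM in Eo+ 5 and 435 to 760 CPM over all Eo+ libraries, and their part in the Tdh value was not tested. Most of that sum was Pou5f1 and Nanog, with Eo+ means of 514 and 119 CPM. Zfp42, Esrrb and Klf4 had Eo+ means of 4.36, 3.56 and 9.36 CPM, so that the sum hardly reflects them. Asns had 165 CPM in Eo+ 1 against 132 to 137 CPM in the others. Prps1 had 257 CPM in ESC 6 against 182 to 185 CPM in the others.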

How the results depend on the processing

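Each value was recomputed under 21 or 22 alternatives: other scalings, filters and locus sets, edgeR and DESeq2 tests, the replicate block, the 2 groups alone, and each library left out. A required 2-fold change was applied to the counts of calls only. For the 9 genes, 544 of 576 such values kept their direction and side of the threshold, 19 were no longer called, for Gldc and Shmt2 in Eo+ vs ESC, and 13 changed sign. For the named pathway genes, 1377 values were kept, 63 lost their call, 16 gained one and 16 changed sign. The losses were in Gcsh (14) in Eo+ vs ESC, in Amt, Mat2a and Sfxn1 (6 each) and Slc38a2 (1) in Eo- vs ESC, and in Aldh1l1 (13), Cth (6), Slc7a11 and Mthfd1 (4 each) and Atf4 (3) in Eo+ vs Eo-. The gains were in Gcsh (6, adjusted p = 0.0152 to 0.0487, among them the replicate block), Dld (1) and Slc1a5 (1, without ESC 5, 0.0162) in Eo- vs ESC, and in Mthfd2l (5) and Slc1a5 (3) in Eo+ vs Eo-. Requiring a 2-fold change left 3, 4 and 1 of the 9 genes in Eo+ vs ESC, Eo- vs ESC and Eo+ vs Eo-, 17, 13 and 5 of the 58 pathway genes, and 6830, 5069 and 3789 loci. With any library left out, 7 to 9, 8 to 8 and 6 to 6 of the 9 genes were called, 39 to 41, 34 to 38 and 18 to 26 pathway genes, and 12347 to 12873, 10239 to 11309 and 7476 to 8844 loci.

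All changes of sign were in values near 0 that were not called in any setting, and their cause was not tested. In Eo+ vs Eo-, Mthfd2 was -0.012 with library totals, -0.019 with 1 CPM in at least 4 libraries and -0.033 to 0.12 with a library left out. Psat1 was -0.027, -0.034, -0.0019 with the loci of the deposited normalized table, and -0.047 to 0.076. Gcsh was 0.0026 without an expression filter and -0.017 to 0.0038 with a library left out, Mthfd1l -0.057 to 0.032 and Mat2a -0.13 to 0.0018. In Eo+ vs ESC, Mthfd1l was -0.019 with DESeq2 size factors, -0.047 with 1 CPM in at least 4 libraries, -0.020 with the DESeq2 Wald test and -0.038 to 0.083 with a library left out. In Eo- vs ESC it was -0.00082, -0.0045 with the Wald test and -0.015 to 0.089, and Mthfd1 was 0.010 with library totals.

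With the replicate block, 8, 8 and 6 of the 9 genes were called in the order above, Gldc being lost in Eo+ vs ESC (adjusted p = 0.0541). For Eo+ vs Eo-, 24 of the pathway genes and 8543 loci were called over all libraries, 26 and 8980 in the fit of the 2 fractions alone, 30 and 9555 with the block over all libraries, and 33 and 10392 in the blocked fit of the 2 fractions, added after the data had been seen. In each of these, 6 of the 9 genes were called. Depth was not limiting for the 9 genes, since the lowest count was 2847.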
